A study of Mus musculus with 3 samples.

Results

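Chondrocytes of the adult bone marrow (BM) library were cells selected on 2 cartilage genes, Col2a1, which encodes the main collagen of cartilage, and Acan, which encodes its large proteoglycan aggrecan. A cell was taken where Col2a1 and Acan together made up 30% or more of its molecules, where it held 500 molecules or more, and where it held no molecule of Ptprc, the gene of the pan-haematopoietic surface protein CD45. This rule found 366 of the 7948 cells of the library (4.60%, exact 95% binomial interval 4.15 to 5.09%), against 24875 cells in the 3 libraries of the series. The number depends on the molecules counted: the same rule found 66 cells in RSEC-adjusted and 68 in raw molecules, both of which keep molecules with few reads that the counts used here (DBEC-adjusted) leave out. The study asked which BM cells express components of Wnt signalling, and measured a panel of chosen targets in single cells by targeted RNA sequencing. The adult library was made from BM of adult wild-type C57/B6 mice after mature haematopoietic cells had been removed with lineage antibodies, and the sources used here give no exact age. Whether the further CD71, CD117 and CD45 depletion described for other adult cells was applied here is not given in the sources used here. Marrow of several mice was pooled and loaded as 1 library. The other libraries of the series, E18.5 EC and E18.5 BM cells, come from wild-type C57/B6 embryos of the stage they are named for, the first sorted for the endothelial protein CD31, and were not compared here. Cells of 1 library are not replicates, so no test was possible, no p-value is given, and every interval is a 95% interval of counting error only.

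Chondrocytes are the cells of cartilage. In the growth plate of long bones, flat proliferating cells are followed by prehypertrophic and then by hypertrophic cells, which swell and secrete collagen X, encoded by Col10a1. Parathyroid hormone-related protein, acting through the receptor Pth1r, slows this maturation, and Wnt ligands are among the other signals of the growth plate. Articular cartilage at the joint surface does not pass through these stages in health and is marked by Prg4, the gene of lubricin.

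The 366 chondrocytes held 533 to 13048 molecules each, with a median of 4149. They were compared with the 1661 other cells of the library that had no Ptprc and 500 or more molecules, whose median was 831. Chondrocytes were 18.1% of the cells at that depth without Ptprc, and held 25.7% of all molecules of the library, 93.0% of its Col2a1 and 91.3% of its Acan. Col2a1 and Acan together took between 30.04% and 95.1% of the molecules of a chondrocyte, with a median of 70.6%. These values are what the cells were chosen by. The cells just inside the threshold stood at 30.04% and 30.5%, and those just outside at 28.9% and 28.9%. Of the other cells, 36 lay between 10% and 30% and 1625 lay below 10%, so that few cells fell near the threshold. Beyond this, 4 cells failed on Ptprc alone, with 1 to 4 molecules of it, and 14 failed on depth alone, with 436 molecules at most. The smallest chondrocytes held 533 and 546 molecules. The adult library shared 38 cell barcodes with E18.5 EC and 113 with E18.5 BM cells, of which 3 and 2 belonged to chondrocytes.

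**Figure D1:**
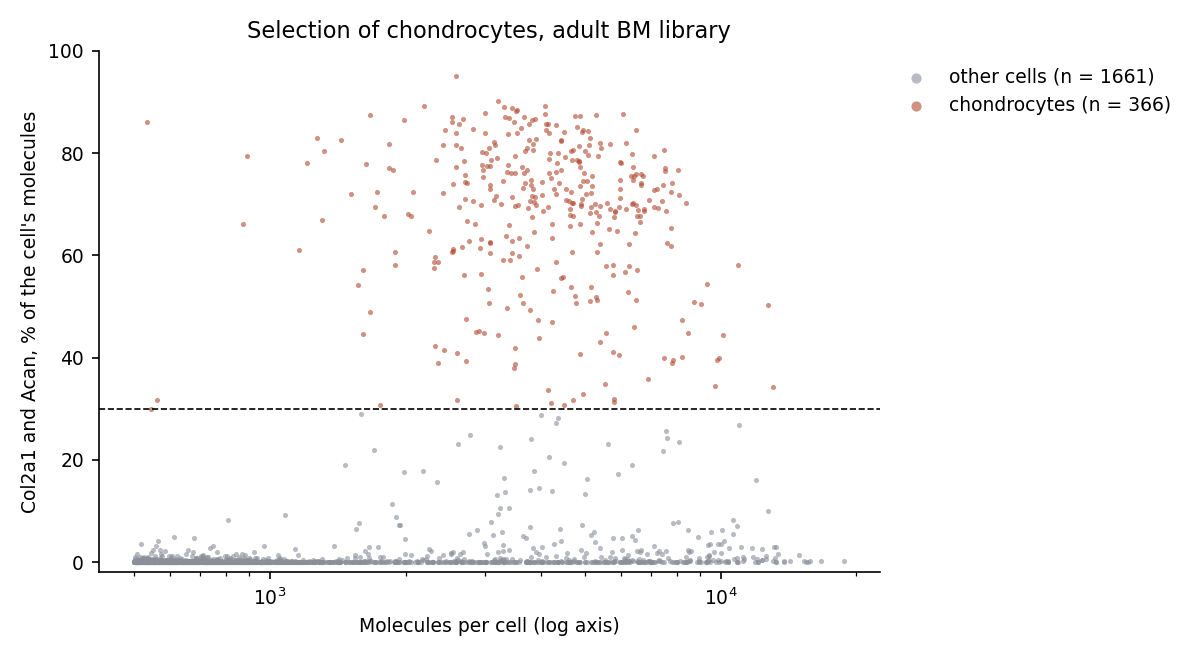
Share of Col2a1 and Acan in the molecules of each cell (y axis, %) against molecules per cell (x axis, log scale), for the 366 chondrocytes and the 1661 other cells without Ptprc and with 500 or more molecules in the adult BM library; the dashed line is the threshold of 30%. Most other cells lie close to 0, and 36 lie between 10% and 30%.

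Because Col2a1 and Acan take most of the molecules of a chondrocyte, levels are given below as molecules per 10000 molecules outside Col2a1, Acan and Ptprc, summed over the cells of a set. That part was 33.4% of the molecules of chondrocytes, or 540585 molecules, against 3382480 in the other cells. The choice matters. Per all panel molecules, the median ratio over targets moved from 0.746 to 0.253, a shift of -1.56 on the log2 scale, and with every cell weighted equally it moved to 0.502. Of 100 targets with 50 molecules or more in both sets together, 40 (40.0%) were at least 2-fold higher in chondrocytes and 48 (48.0%) at least 2-fold lower. Per all panel molecules, 24 (24.0%) were higher and 57 (57.0%) lower. On all 4 scales, which add the equally weighted mean and molecules per cell, 24 targets were higher and 47 lower.

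Several genes of cartilage that the rule did not use were far higher in chondrocytes. Sox9, the transcription factor that specifies chondrocytes, was present in 99.2% of chondrocytes, at a median of 22.5 and at most 133 molecules per cell, against 14.7% of other cells. Its level was 193 per 10000 in chondrocytes and 3.43 in other cells, a ratio of 56.1 (52.8 to 59.7). Matn1, the gene of the cartilage protein matrilin-1, had a higher ratio of 108 (87.8 to 134) but was found in 50.3% of chondrocytes. Its level was 30.3 per 10000 against 0.281, and the 10% of chondrocytes richest in it held 72.3% of its molecules. Cnmd, which encodes chondromodulin and was the only target of the further cartilage list in the panel, was sparse at 2.96 per 10000 against 0.0296, a ratio of 100.1 (53.0 to 213). All 3 targets of the chondrocyte list outside the rule, Matn1, Sox9 and Col10a1, were at least 2-fold higher, against 40.0% of the targets tested. The label chondrocyte thus held on these listed markers outside the rule, although Matn1 and Col10a1 marked only some of the cells. Cilp, a cartilage gene outside the lists, went the other way and was at least 2-fold lower in chondrocytes on all 4 scales.

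Epyc and Scrg1 were the most even marks of these cells. Epyc, the gene of the small proteoglycan epiphycan of cartilage, was present in 99.5% of chondrocytes and 3.37% of other cells, with a median of 38 and at most 215 molecules per chondrocyte. Its level was 295 per 10000 against 2.31, a ratio of 128 (119 to 137). Scrg1 was present in 99.2% of chondrocytes against 4.03% of other cells, and its ratio was 75.8 (69.3 to 83.0). The richest 10% of chondrocytes held 19.97% of the Epyc and 18.7% of the Scrg1 molecules. Panx3, which encodes a channel protein of cartilage and bone, had the largest ratio of the panel at 140.3 (132 to 149), from 451 per 10000 against 3.22. It was uneven, since 60 chondrocytes had none and the fullest had 588 molecules. Rspo4 and Smpd3 stood at 15.3 and 18.2 per 10000, with ratios of 105 (79.0 to 144) and 46.3 (38.6 to 55.9). Smpd3 encodes a sphingomyelinase needed for skeletal mineralization. Mgp, the gene of matrix Gla protein, an inhibitor of mineralization, gave more molecules than any target but Col2a1, though amplicons need not be equally efficient, at 3676 per 10000 against 601, a ratio of 6.11 (6.08 to 6.15).

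With every cell weighted equally, the ratios of Epyc and Matn1 were 248 and 238. In RSEC-adjusted molecules of the same cells the ratios were lower in size but on the same side, at 21.4 for Epyc, 18.2 for Matn1, 13.8 for Sox9 and 21.9 for Panx3. Sox9 was counted by 2 amplicons, which gave ratios of 62.9 and 53.2.

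**Figure D2:**
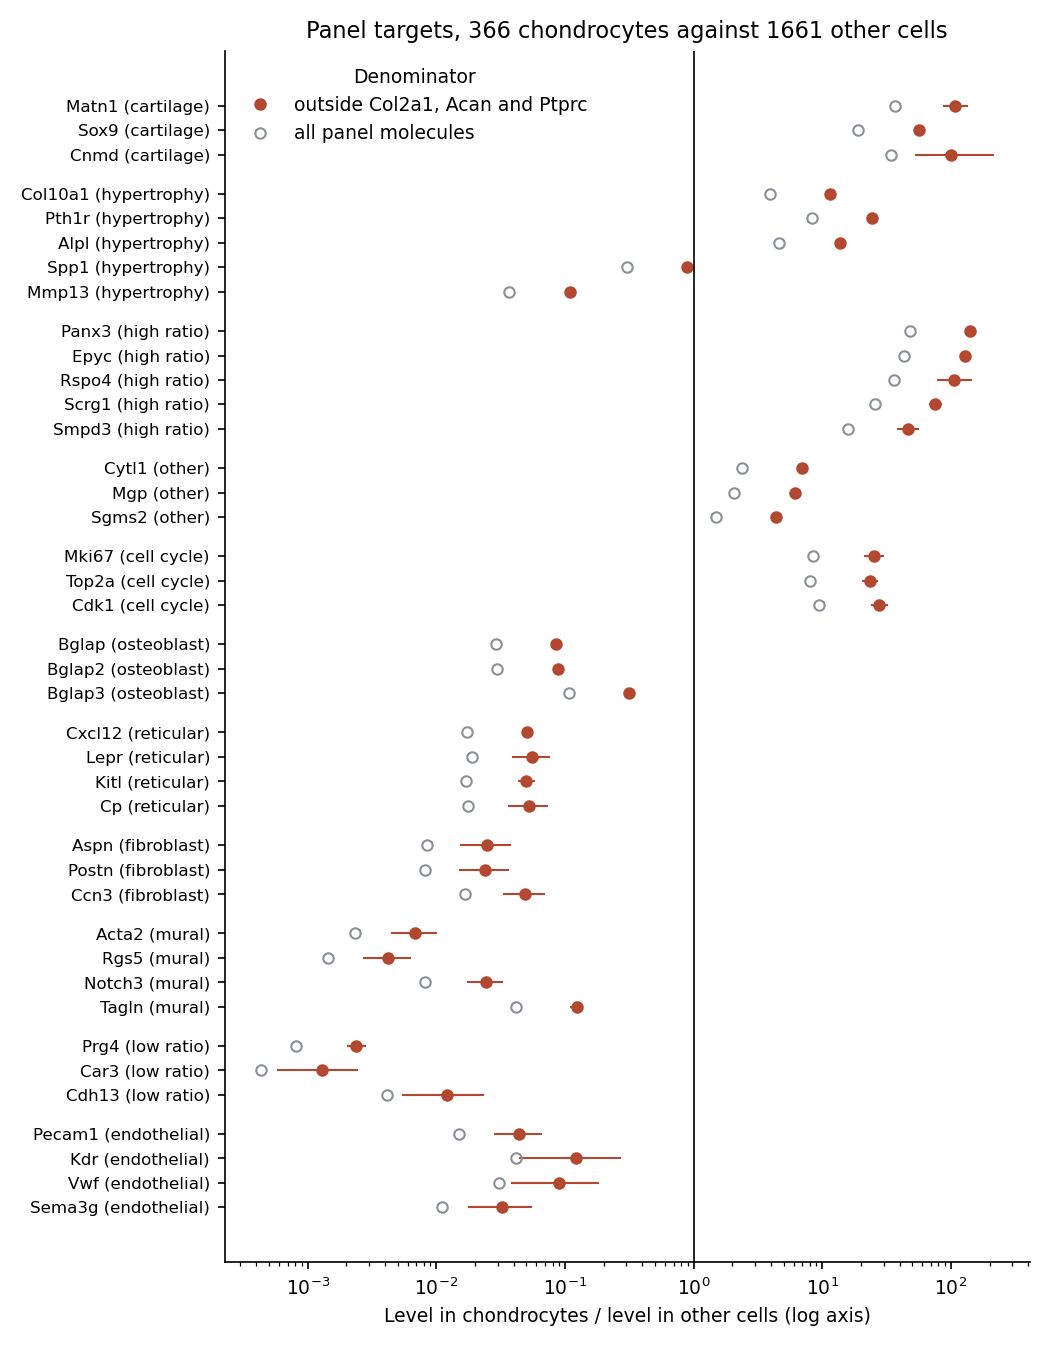
Ratio of the level in 366 chondrocytes to that in 1661 other cells (x axis, log scale) for named targets (y axis, with the list each belongs to); filled points use molecules outside Col2a1, Acan and Ptprc as denominator and bars are 95% intervals of counting error, open points use all panel molecules. Cartilage targets lie near 100 and targets of reticular, mural and fibroblast cells below 0.2, and open points lie to the left of filled ones throughout.

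Markers of reticular, fibroblast and mural cells were low. The 4 tested reticular, 3 fibroblast and 4 mural targets were each at least 2-fold lower in chondrocytes, against 48.0% of the targets tested. Cxcl12, the chemokine of reticular cells, stood at 47.1 per 10000 against 922, a ratio of 0.0511, and 496 of its 2548 molecules came from 1 chondrocyte. Lepr, the leptin receptor that marks reticular cells, stood at 0.721 against 13.0. Acta2, which encodes smooth muscle actin, stood at 0.518 against 75.7, and Rgs5, a marker of pericytes, at 0.462 against 109.8. Prg4 stood at 3.29 against 1376, a ratio of 0.00239. A high share of Prg4 lowers that of Col2a1 and Acan, so the rule itself can place Prg4-rich cells among the other cells. Which of the other cells held Prg4 was not examined, and whether any chondrocytes are articular was not tested. The fixed list held no articular marker, and Prg4 is named as one of the 10 targets with the lowest ratio. Car3, Cdh13 and Vcan were among these 10 as well, at 0.166, 0.166 and 0.0555 per 10000 against 129.9, 13.7 and 4.34. No molecule of Mmp9, a protease of osteoclasts, was found in chondrocytes against 1371 in other cells, which is at least 73.0-fold lower when 3 molecules are taken as the floor over the set. Of the other osteoclast targets, Atp6v0d2 also had no molecule, at least 3.94-fold lower, Ctsk had a ratio of 0.698 and Acp5 of 0.312, which became 1.07 with RSEC-adjusted and 1.05 with raw molecules when members were found anew.

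Osteocalcin genes, the 3 osteoblast targets, were each at least 2-fold lower by pooled level, but not in the typical cell. Bglap3 was present in every chondrocyte, in 99.9% of other cells and in 96.8% of the 1670 cells with Ptprc, whose median depth was 96 molecules against 4149 in chondrocytes, so its presence alone is not read as expression here. Within chondrocytes its level was 660 per 10000 in cells with Panx3 and 349 in cells without. Its median share was 154 per 10000 panel molecules in chondrocytes and 139 in other cells, and its ratio of 0.315 became 0.922 with every cell weighted equally. Bglap and Bglap2, near-identical genes whose reads the amplicons may not separate, had ratios of 0.0850 and 0.0879. With members found anew in RSEC-adjusted molecules, Bglap, Bglap2 and Bglap3 turned to 1.12, 1.13 and 1.10. Summed over the cell, the 3 osteoblast targets ranged from 104 to 7370 per 10000 in chondrocytes with a median of 749, above the median of 150 in other cells, and no target was at 0. The pooled level was 851 in chondrocytes and 4922 in other cells, of which 307 were led by these targets.

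The endothelial and osteoclast lists were at 0 in the median chondrocyte, and the haematopoietic list was above it. The 7 endothelial targets summed to at most 86.0 per 10000 with a median of 0, and none was at 0 over the whole set. Pecam1, the gene of CD31, stood at 0.462 per 10000 against 10.5, a ratio of 0.0440. Of these 7 targets, 6 were at least 2-fold lower, against 48.0% of all targets. Apln was higher at 2.96 from 27 molecules, which became 1.01 per all panel molecules, and 0.857 with RSEC-adjusted and 0.493 with raw molecules when members were found anew. The direction turned with the read filter, as in RSEC-adjusted molecules of the same cells the ratio of Pecam1 was 1.53, of Kdr 1.71, of Stab1 1.82 and of Vwf 1.64. The 4 haematopoietic targets other than Ptprc ranged from 0 to 1080 per 10000 with a median of 10.3, above the median of 0 in other cells. Pooled, they stood at 17.4 against 21.2. Kit was at 0, and of the 3 tested Mecom was lower at 0.109, which turned to 1.54 in RSEC-adjusted molecules of the same cells. Srgn stood at 0.859 and Hlf at 0.923. The 4 osteoclast targets summed to at most 46.6 with 2 at 0. The 5 reticular targets reached 5000 in 1 cell with a median of 0, with Adipoq at 0, the 4 mural targets 695 and the 3 fibroblast targets 71.2. Leaving out the chondrocytes in which 5% or more of the molecules outside Col2a1 and Acan belonged to these 6 lists left 354 of 366 cells and 39 higher targets. No doublet caller was run, and the part of doublets in these values was not tested.

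Within the chondrocytes, several targets were spread over more than an order of magnitude. Pth1r, the receptor of the parathyroid hormone-related protein, was present in 99.7% of chondrocytes with a median of 80.5 and at most 684 molecules, and its level of 1004 per 10000 against 41.2 gave a ratio of 24.4 (23.9 to 24.9). Alpl, the gene of the alkaline phosphatase of mineralizing matrix, ranged from 0 to 591 molecules with a median of 30.5, and had a ratio of 13.7 (13.4 to 13.9). Cytl1, a secreted protein of cartilage, had a median of 6 molecules while its fullest cell had 830, and the richest 10% held 59.0% of its molecules. Spp1, the gene of osteopontin, was found in 38.8% of chondrocytes, and the richest 10% held 95.4% of its molecules. Mmp13, the collagenase of the last hypertrophic stage, had 796 molecules in chondrocytes, of which 525 came from 1 cell, and a ratio of 0.109. Of the 5 targets of the hypertrophy list, Col10a1, Pth1r and Alpl were at least 2-fold higher, Mmp13 was lower, and Spp1 stood at 0.895, against 40.0% higher and 48.0% lower among all targets. Per all panel molecules Spp1 stood at 0.304, and 3 were higher and 2 lower, against 24.0% and 57.0%.

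**Figure D3:**
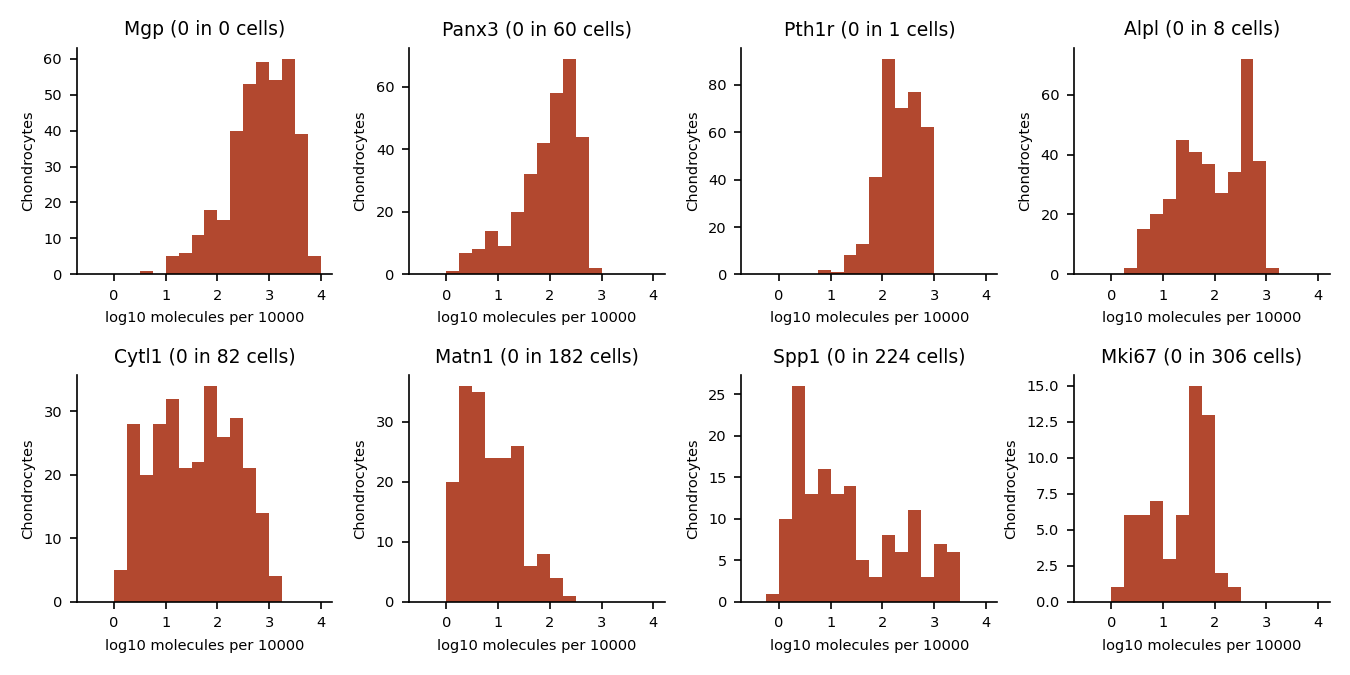
Distribution over 366 chondrocytes of 8 targets (x axis, log10 molecules per 10000 panel molecules of the cell; y axis, number of chondrocytes), with the number of cells at 0 in each title, which the bars leave out. Pth1r and Mgp are present in nearly every cell, Alpl has a low and a high range, and Matn1, Spp1 and Mki67 are at 0 in 182, 224 and 306 cells.

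Col10a1 was concentrated in a few chondrocytes. It was at 0 in 281 of 366 cells, and the 85 others ranged from 0.0129% to 56.6% of their molecules with a median of 1.91%. Below 1% lay 318 cells, between 1% and 10% lay 18, and at 10% or more lay 30 (8.20%, 5.60 to 11.5%). These 30 cells held 95.01% of the Col10a1 molecules of the chondrocytes. The level over all chondrocytes was 1237 per 10000 against 108 in other cells, a ratio of 11.5 (11.3 to 11.6). Of the other cells, 16 also had Col10a1 at 10% or more, up to 82.2% of their molecules, and 8 of them had Col2a1 and Acan at 10% or more without reaching the 30% of the rule. Cells with Ptprc had Col10a1 in 3.65% against 23.2% of chondrocytes. Thinned to 200 molecules outside Col2a1, Acan and Ptprc, which left out 3 chondrocytes and 1454 of the 1670 cells with Ptprc, the shares were 17.9% and 3.30%. Before the read filter, all of the 281 cells at 0 had Col10a1 in the RSEC-adjusted molecules, with a median of 35 molecules and at most 1.12% of the cell's molecules. The cells at 10% or more were still at 10.1% or more there.

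Many targets differed along the 3 ranges of Col10a1, some of them most in the middle range. Levels here leave out Col10a1 as well. The ranges differ in depth, at medians of 3898, 5328 and 7523 molecules. Of 57 targets with 50 molecules or more in the lowest and highest range together, 13 (22.8%) were at least 2-fold higher at 10% or more than below 1% and 12 (21.1%) at least 2-fold lower. Alpl went from 643 per 10000 below 1% to 2207 between 1% and 10% and 2118 at 10% or more. Its ratio of the highest to the lowest range was 3.29 (3.22 to 3.37), and it was present in all 30 of the highest cells. Sgms2, which encodes a sphingomyelin synthase, went from 38.5 to 239 and 124. Pth1r was highest in the middle range, at 990, 2464 and 1806, and so was Panx3, at 468, 1030 and 650. Cytl1 was at 313, 577 and 823. Matn1 was at 21.4, 101 and 115, a ratio of 5.35 (4.79 to 5.97), although 1 cell held 43.4% of its molecules in the highest range, and the ratio was 5.11 with cells weighted equally.

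Mgp went the other way. It was at 4793 per 10000 below 1%, at 611 between 1% and 10% and at 890 at 10% or more, a ratio of 0.186 (0.180 to 0.191). The cell cycle targets, the cyclin gene Ccnd1, the transcription factor Lef1 and Rspo4 were also lower at 10% or more, with ratios of 0.106 for Mki67, 0.315 for Ccnd1, 0.0654 for Lef1 and 0.229 for Rspo4. Per all panel molecules these were 0.0756, 0.226, 0.0468 and 0.164, and that of Mgp was 0.133. Of the hypertrophy list, Spp1 was at 323, 77.8 and 1023, but 1 cell held 51.0% of the highest value. Mmp13 was at 19.5, 1.23 and 1.94, so the chondrocytes with Col10a1 at 10% or more were not rich in it. Below 1%, 525 of its 784 molecules came from 1 cell. The other cells with Col10a1 at 10% or more, which the rule left out, were not examined for Mmp13. Summed over Alpl, Mmp13, Pth1r and Spp1, the list was 2.50-fold higher at 10% or more than below 1%, and 1.99-fold in RSEC-adjusted molecules. The largest ratios, 51.1 for Tagln and 16.2 for S100a4, each rested on 1 cell. The richest cell held 97.8% of the Tagln and 99.6% of the S100a4 molecules of the highest range. Whether it was the same cell for both was not examined.

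**Figure D4:**
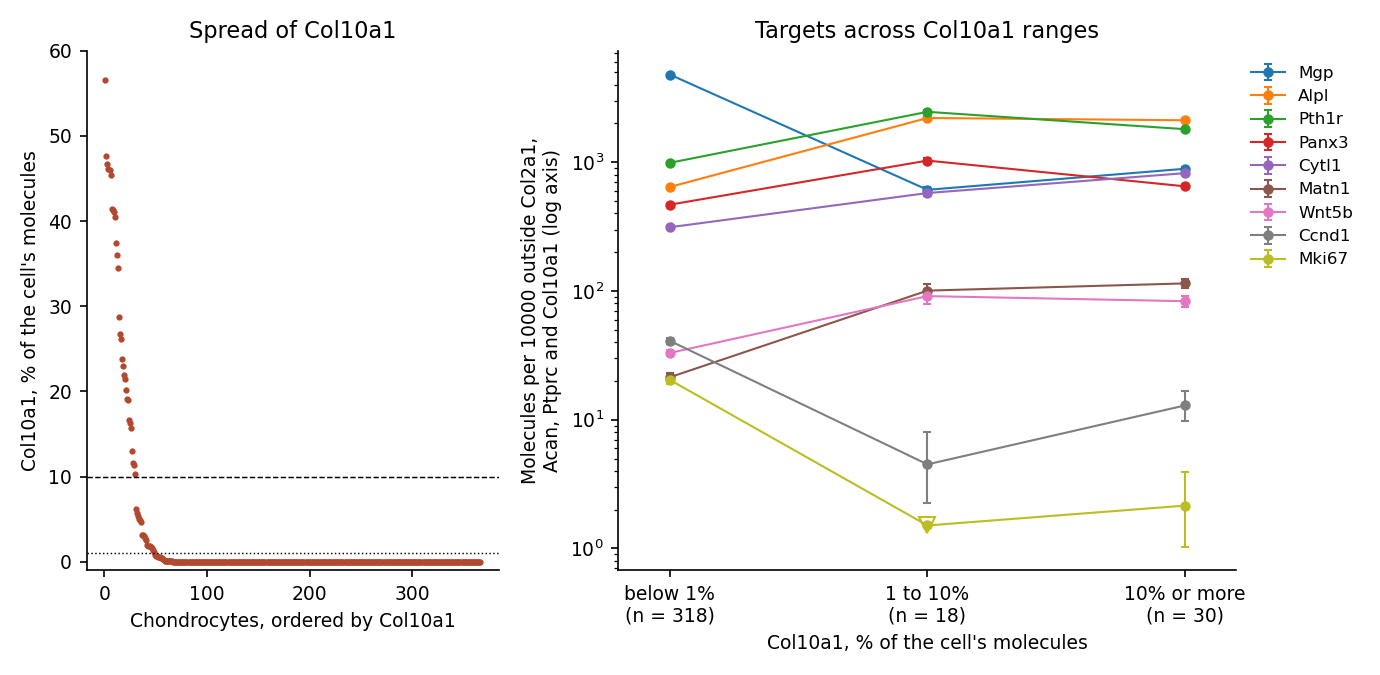
Left, Col10a1 as % of the molecules of each of 366 chondrocytes (y axis), ordered from highest to lowest (x axis), with lines at 10% and 1%; right, levels of 9 targets (y axis, molecules per 10000 outside Col2a1, Acan, Ptprc and Col10a1, log scale) in the 3 ranges of Col10a1, with 95% intervals of counting error. Alpl, Matn1 and Wnt5b are higher in both upper ranges and Mgp, Ccnd1 and Mki67 lower; the open triangle is the upper limit for Mki67, which had no molecule between 1% and 10%.

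The 60 chondrocytes without Panx3 were also compared with the rest, a division chosen after its values were seen. Their median depth was 3509 molecules against 4314 in the 306 with Panx3. Of 57 targets, 5 (8.77%) were at least 2-fold higher in the cells without Panx3, namely Cilp, Ccnd1, Igfbp7, Lef1 and Mgp, and 22 (38.6%) at least 2-fold lower. Cilp, the gene of a protein of the cartilage intermediate layer, was at 33.2 per 10000 against 1.91, a ratio of 17.3 (13.5 to 22.5). Ccnd1 was at 86.0 against 24.1, Igfbp7 at 273 against 81.4, Lef1 at 13.0 against 3.89, and Mgp at 7004 against 3297. On the lower side, Alpl was at 106 against 918, Pth1r at 340 against 1177, Smpd3 at 2.99 against 21.9, and Sgms2 at 0.130 against 61.7. Sox9 was close in both, at 184 against 205, and so was Fzd9, at 12.6 against 11.3. Only 1 of these 60 cells had Col10a1 at 10% or more. Rspo4, lower where Col10a1 was at 10% or more, was also lower in the cells without Panx3, at 4.29 against 18.1. The 2 divisions are therefore not read as ends of 1 order of cells.

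Across the 366 chondrocytes, which share 1 library and its depth, shares of panel molecules of Alpl and Pth1r had a Spearman correlation of 0.75, Alpl and Sgms2 of 0.80, Panx3 and Pth1r of 0.77, and Alpl and Wnt5b of 0.73. Alpl and Mgp had -0.69. Taken per molecule of Col2a1 and Acan these were 0.74, 0.80, 0.76, 0.72 and -0.60. Of the 13 pairs computed, Cytl1 and Panx3 changed sign, from -0.04 to 0.03.

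Some chondrocytes held cell cycle transcripts. Mki67, the gene of the proliferation antigen Ki-67, was at 15.4 per 10000 against 0.612 in other cells, a ratio of 25.1 (21.6 to 29.4), Top2a at 19.9 against 0.848 and Cdk1 at 23.9 against 0.860. All 3 targets of the list were at least 2-fold higher, against 40.0% of all targets. Per all panel molecules all 3 were higher as well, against 24.0%. The richest 10% of chondrocytes held between 90.9% and 93.4% of their molecules. At least 2 of the 3 were present in 62 of 366 chondrocytes (16.9%, 13.2 to 21.2%) and in 30 of 1661 other cells (1.81%, 1.22 to 2.57%). Cells with Ptprc, which hold cycling progenitors, had 2 or more in 52.2% at a much lower depth. The 62 chondrocytes had a median of 4163 molecules, against 4141 in the rest. Of the 62, 6 lacked Panx3 and 1 had Col10a1 at 1% or more, a cell that also passed 10%.

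The Wnt targets were the purpose of the panel. Wnt proteins are secreted ligands that bind frizzled (Fzd) receptors, R-spondins (Rspo) amplify the response through Lgr receptors, Dkk proteins oppose it, and Lef1, Ccnd1 and Myc lie at its nuclear end. Of 43 Wnt targets in the file, 30 could be compared, of which 18 were at least 2-fold higher in chondrocytes and 8 at least 2-fold lower, against 40.0% and 48.0% of all targets tested. Per all panel molecules the counts were 7 and 10, against 24.0% and 57.0% of all targets, so that the share of higher Wnt targets was near that of all targets. With members found anew, 10 Wnt targets were higher in RSEC-adjusted and 10 in raw molecules, and 4 were lower in RSEC-adjusted molecules. In the same cells 2 were lower in RSEC-adjusted and 3 in raw molecules. The 40.0% and 48.0% are shares in DBEC-adjusted molecules and give no background for these counts, which are not read further. The 7, which were higher on all 4 scales, were Wnt5b, Wnt11, Wnt5a, Fzd9, Rspo4, Lef1 and Ccnd1.

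By role, 15 ligands were listed and 7 could be compared, of which 5 were higher and 2 lower, against 40.0% and 48.0% of all targets, and 3 and 2 per all panel molecules, against 24.0% and 57.0%. Together the ligands stood at 80.3 per 10000 in chondrocytes against 11.3 in other cells, a ratio of 7.14 (6.83 to 7.46), or 2.42 per all panel molecules. Wnt5b, a ligand known from the growth plate, gave the most molecules of them, at 35.9 against 1.87, with a median of 3 and at most 30 molecules per chondrocyte. Its ratio was 19.2 (17.5 to 21.0), and 6.52 per all panel molecules. It was present in 76.2% of chondrocytes, and in 44.9% after thinning to 200 molecules against 5.41% of other cells and 3.85% of cells with Ptprc. Wnt11 was at 19.7 against 1.43, a ratio of 13.8 (12.3 to 15.4), and in 31.6% of thinned chondrocytes against 3.77% of other cells and 5.06% of cells with Ptprc. Wnt5a was sparse, at 2.87 against 0.272, a ratio of 10.5 (8.09 to 13.8).

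Wnt4 was at 20.9 against 5.95, and its ratio of 3.52 (3.27 to 3.79) became 1.196 per all panel molecules. Wnt10b, with 25 molecules, was at 4.01 and 1.36. Wnt9a was lower at 0.220, and Wnt2, the ligand with 167 molecules in other cells, had none, at least 8.90-fold lower. In RSEC-adjusted molecules Wnt9a stood at 0.981 and Wnt2 at 0.566, both short of 2-fold lower. Of Wnt5b, Wnt11, Wnt4 and Wnt5a, 60 chondrocytes had all 4, 142 had 3, 90 had 2, 51 had 1 and 23 had none. Wnt5b was higher where Col10a1 was, at 33.0, 91.3 and 83.3 per 10000 across the 3 ranges, and Wnt11 was not, at 23.5, 22.1 and 13.8.

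Among the receptors, 9 of 10 could be compared, of which 4 were higher and 2 lower, a share of higher targets near the 40.0% of all targets. Per all panel molecules 1 was higher and 4 lower. Fzd9 stood at 11.0 per 10000 against 1.07, a ratio of 10.3 (9.002 to 11.8), with a median of 1 and at most 12 molecules per chondrocyte. After thinning it was in 25.4% of chondrocytes, 3.19% of other cells and 8.91% of cells with Ptprc. Fzd7 was at 19.9 against 4.41, a ratio of 4.51 (4.17 to 4.88), or 1.53 per all panel molecules. The ratios of Fzd2 and Fzd8, 3.83 and 2.12, became 1.30 and 0.719 on that scale. Fzd5 and Fzd3 were lower at 0.138 and 0.0613, but stood at 1.08 and 1.38 in RSEC-adjusted molecules. Lgr4 was at 1.98, or 0.672 per all panel molecules, Fzd6 at 1.01 or 0.344, and Fzd4 at 0.795 or 0.270. Lgr5 had no molecule in chondrocytes against 45 in other cells.

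Of the 8 secreted modulators, 5 could be compared, of which Rspo4 was higher and Rspo2, Dkk1 and Dkk3 lower. Over all targets, 40.0% were higher and 48.0% lower. Per all panel molecules the counts were again 1 and 3, against 24.0% and 57.0% of all targets. Rspo4 was present in 62.6% of chondrocytes with a median of 1 and at most 19 molecules, against 1.75% of other cells and 0.359% of cells with Ptprc. Thinned, it was in 28.5%, 0.345% and 0.492%. Rspo2 was the reverse, at 0.647 per 10000 against 11.6, a ratio of 0.0560, or 0.742 in RSEC-adjusted molecules. Rspo3 had 14 molecules against 13 and was too sparse to compare. Dkk3 was at 0.111 against 3.69, and Dkk1 at 0 against 63 molecules, at least 3.36-fold lower. Wls, which carries Wnt proteins to the cell surface, was at 32.4 against 18.9, a ratio of 1.71 that became 0.580 per all panel molecules.

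The intracellular list followed the scale. Of it, 5 targets were higher and 1 lower, against 40.0% and 48.0% of all targets. Per all panel molecules the counts were 0 and 1, against 24.0% and 57.0%. Of 6 compared targets, Dvl2, Ccny, Axin1, Apc and Dvl1 had ratios of 3.59, 3.33, 2.25, 2.06 and 2.003, and of 1.22, 1.13, 0.765, 0.700 and 0.680 per all panel molecules, so no direction is given for the last 3. Cdk14 was lower at 0.266, but stood at 1.02 in RSEC-adjusted molecules. All 3 nuclear and target genes were higher, against 40.0% of all targets, and 2 of 3 per all panel molecules, against 24.0%. Lef1 was at 5.01 against 0.310, a ratio of 16.1 (12.8 to 20.4), Ccnd1 at 31.9 against 3.70, a ratio of 8.60 (7.99 to 9.26), and Myc at 32.2 against 6.47, a ratio of 4.97 (4.67 to 5.30), or 1.69 per all panel molecules. Ccnd1 and Lef1 were highest in the cells without Panx3 and Wnt5b in those with Panx3, at 41.7 per 10000 against 14.3.

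The other cells are a mixture, and a ratio to their sum can hide a set that is level with chondrocytes. They were split by the marker list that held most of their molecules, at least 10%, which gives a range and not a cell type. Reticular targets led 787 cells, osteoblast targets 307, mural targets 156 and fibroblast targets 42, and no list led 358. The 307 osteoblast-led cells held 1781111 of the 3382480 molecules of the comparison. Levels by leading list, here and in the next paragraph, use only molecules outside Col2a1, Acan and Ptprc, which were 33.4% of chondrocyte molecules. They were not repeated per all panel molecules or per cell, so their size and order hold on this scale only. On it, Wnt4 in chondrocytes was level with reticular-led cells, at 20.9 against 21.4, a ratio of 0.981 (0.903 to 1.06). Wnt11 was lower than in fibroblast-led cells, at 19.7 against 33.2, a ratio of 0.593 (0.488 to 0.728). Wnt10b, Wnt9a and Wnt2 were at 5.38, 30.2 and 25.7 in fibroblast-led cells, against 0.462, 0.203 and 0 in chondrocytes. Fzd7 was 1.30 times the level of reticular-led cells (1.19 to 1.42).

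In contrast, Wnt5b was above each of the 5 sets, by 5.01-fold against fibroblast-led cells (3.35 to 7.83) up to 32.6-fold against osteoblast-led cells. Fzd9 was 4.48-fold above reticular-led cells (3.72 to 5.43) and further above the others. Rspo4 stood between 0.00561 and 0.896 per 10000 in the 5 sets against 15.3 in chondrocytes, and Lef1 between 0.0674 and 0.675 against 5.01. Pth1r was 22.0 times the level of reticular-led and 24.1 times that of osteoblast-led cells, both of which carry the receptor. Wls was highest in fibroblast-led cells at 186, against 32.4 in chondrocytes. The 358 cells that no list led had the nearest levels of Sox9 and Epyc, at 11.5 and 8.94 per 10000. They were closer still on some targets. Chondrocytes had only 2.93 times their level of Col10a1, 2.38 times that of Mgp and 1.84 times that of Cytl1.

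**Figure D5:**
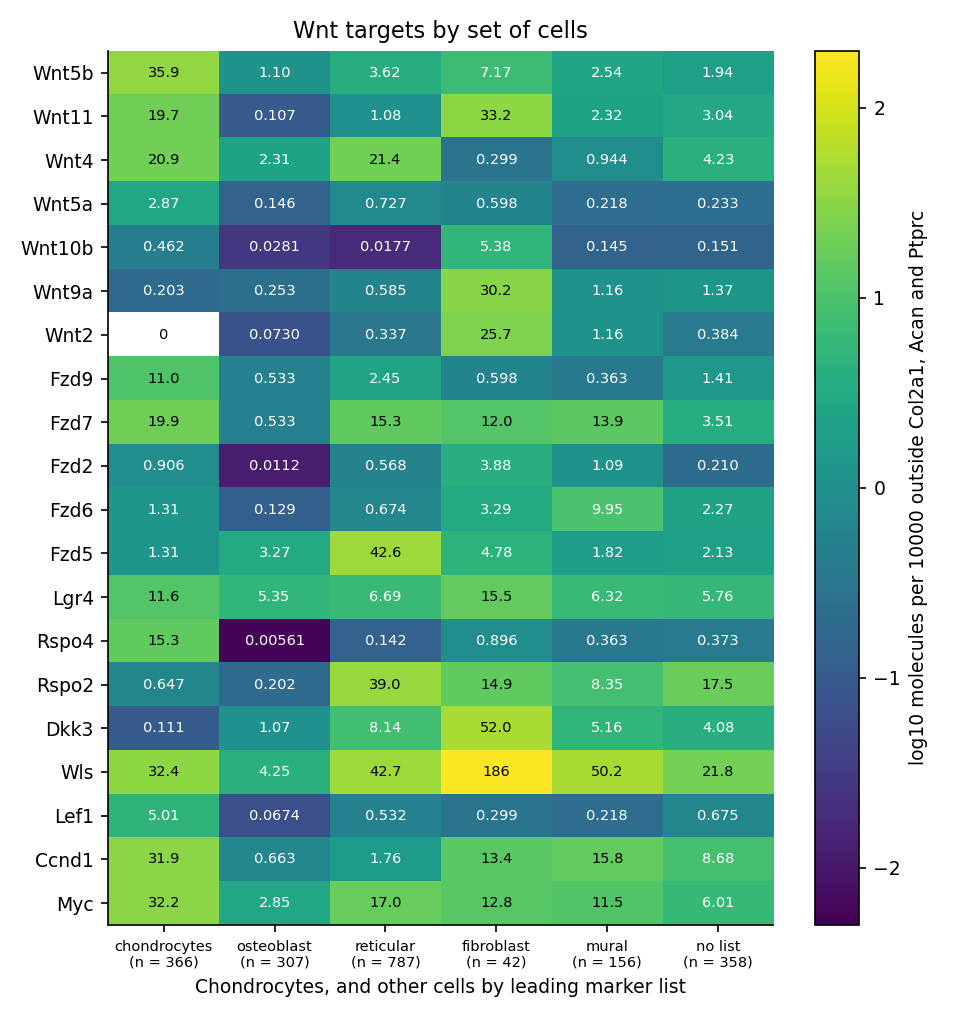
Levels of 20 Wnt targets (rows) in 366 chondrocytes and in 5 sets of other cells by leading marker list (columns), as molecules per 10000 outside Col2a1, Acan and Ptprc, printed in each field and coloured on a log10 scale, with white for 0. On this scale Rspo4, Lef1, Fzd9 and Wnt5b are highest in chondrocytes, and Wnt4 is level with the reticular-led cells. Wnt11, Wnt9a, Wnt2 and Wls are highest in the fibroblast-led cells.

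The targets that carry these results lie on several chromosomes of the mouse genome (GRCm38, GENCODE M21), and amplicons were named for the end of a transcript. Col2a1 lies on chromosome 15 from 97975602 to 98004695 on the minus strand with 54 exons, and Acan on chromosome 7 from 79053483 to 79115099 on the plus strand with 17. Col10a1 lies on chromosome 10 from 34389981 to 34397085 on the plus strand with 3 exons, and Panx3 on chromosome 9 from 37659902 to 37669235 on the minus strand with 4. Of the Wnt targets, Wnt5b lies on chromosome 6 from 119432531 to 119449386 on the minus strand with 5 exons and Rspo4 on chromosome 2 from 151842927 to 151874668 on the plus strand with 5, while Fzd9 has 1 exon, on chromosome 5 from 135248938 to 135251230 on the minus strand.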

How the data were processed

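Single cells were captured in microwells and a custom primer panel was amplified. The deposited files are counts of reads and molecules per cell and amplicon. Per the file headers, release 1.8 of the BD targeted pipeline gave these counts, although a different release is given in the methods, and the processing notes name the build mm10. The deposited molecules are raw, after recursive substitution error correction (RSEC) or after distribution-based error correction (DBEC), which drops molecules with few reads. These deposited counts are not normalized. DBEC counts, 38.1% of raw molecules in chondrocytes and 34.5% in other cells, were used here.

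The 3 libraries held 4043 to 12884 cells at medians of 83 to 242 molecules, and all cells had 20 molecules or more. The adult file lists 130 amplicons of 119 targets, summed by symbol. Some targets, such as Apc, Sox9, Kitl and Wnt4, have several amplicons that may count 1 molecule more than once, so their intervals may be too narrow. Chondrocytes followed the rule in the text. Members, lists and thresholds were chosen with earlier results of these data known. Named targets are those of the lists plus the 10 highest and 10 lowest ratios among targets with 50 molecules or more; others were chosen after their values were seen. Intervals are exact (Poisson, binomial, or conditional binomial for ratios) at 95%, and a count of 0 was given a floor of 3 molecules. Shares after thinning are hypergeometric expectations at 200 molecules. Cells were not clustered, and doublets were neither called nor removed. Alternatives were RSEC and raw molecules, other thresholds, other denominators and left-out cells. Functions were tested on simulated data. Python 3.11.15, numpy 2.4.6, pandas 2.3.3, scipy 1.17.1 and matplotlib 3.10.9 were used.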

Additional observations from a re-analysis of the deposited data

Results flagged for a closer look

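In E18.5 BM cells, which entered none of the comparisons, 11 of 12884 cells met the rule used for chondrocytes, and none of 4043 did in E18.5 EC. The 11 cells held 535 to 2726 molecules, with a median of 940. Matn1 was present in 11 of 11, at 1757 per 10000 molecules outside Col2a1, Acan and Ptprc (1614 to 1909), and Rspo4 had no molecule, which allows up to 11.6. Panx3 was in 2 of the 11, at 88.2 (58.6 to 127), and Fzd9 in 9. Stage, library and depth cannot be told apart here, and no difference from adult chondrocytes was tested.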

How the results depend on the processing

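Cells of 1 pooled library carry no replicate error, and depth limits sparse targets. No paired analysis was possible because each group is 1 library. The read filter mattered most. With members found anew, RSEC-adjusted and raw molecules gave 66 and 68 chondrocytes, 10 and 10 higher Wnt targets and 1.52% and 1.47% of cells with Col10a1 at 10% or more. RSEC gave 24 lower targets and 4 lower Wnt targets, and raw molecules 26 higher targets. In the same cells, RSEC and raw molecules gave 12 and 21 lower targets, 2 and 3 lower Wnt targets, and 1.99 and 1.94 for the hypertrophy list across Col10a1 ranges; these, and the comparison without the 36 cells at 10% to 30%, were chosen after seeing the data, as were the division by Panx3 and the second denominator of the correlations. Per all panel molecules, 24 targets and 7 Wnt targets were higher. With 1000 molecules or more, 5 Wnt targets were lower. The share with Col10a1 at 10% or more was 4.76% at 50% of Col2a1 and Acan and 4.26% without the deepest 10% of chondrocytes. The cause was not tested in any of these. Other alternatives left these counts within 1.5 times. Both limits between tertiles of Col10a1 were 0, so cells at 0 were set against the rest (2.61).

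Ratios that crossed 1 per all panel molecules were Apc 0.700, Axin1 0.765, Dvl1 0.680 and Fzd8 0.719. With members found anew, they were with RSEC Acp5 1.07, Apln 0.857, Bglap 1.12, Bglap2 1.13, Bglap3 1.10, Kdr 1.29, Mecom 1.13, Stab1 1.13 and Vwf 1.05, and with raw molecules Acp5 1.05, Apc 0.979, Apln 0.493, Bglap 1.06, Bglap2 1.07, Bglap3 1.16 and Fzd8 0.922. In the same cells they were with RSEC Cdk14 1.02, Fzd3 1.38, Fzd5 1.08, Gja4 1.10, Kdr 1.71, Mecom 1.54, Pecam1 1.53, Sema3g 1.33, Stab1 1.82 and Vwf 1.64, and with raw molecules Cdk14 1.02, Fzd3 1.24, Gja4 1.14, Kdr 2.02, Mecom 1.58, Pecam1 1.54, Sema3g 1.22, Stab1 2.04 and Vwf 1.68. Thinned to 500 panel molecules, Wnt5b was in 36.2% of chondrocytes and Fzd9 in 17.97%.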
